A study of Homo sapiens with 6 samples.

Results

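This account concerns the messenger RNAs of the SR proteins, of their relatives TRA2A and TRA2B, and of the heterogeneous nuclear ribonucleoproteins (hnRNPs) in IMR32 cells, a long-established line from a human neuroblastoma with MYCN amplification. A probe set, a group of short probes read together on the array, was taken as a member when its only annotated gene symbol was SRSF plus a number, TRA2A, TRA2B or a symbol beginning with HNRNP. Of 54675 probe sets on the array, 124 were members, and they covered 31 genes. They comprised 43 probe sets of 10 SR protein genes, 9 of the 2 TRA2 genes and 72 of 19 hnRNP genes. The pseudogene HNRNPA3P1 and HNRNPD-DT, a non-coding transcript that diverges from the start of HNRNPD, were left out. HNRNPA3P1 lay near the lowest value of the arrays, and HNRNPD-DT had a log2 fold change of 0.08 (adjusted p = 0.159).

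RNA was measured on 6 Affymetrix arrays. The control group was 3 samples in 0.1% DMSO, and the treated group was 3 samples in 118 µM teriflunomide. Exposure lasted 24 h and began 12 h after plating in both groups. Teriflunomide inhibits dihydroorotate dehydrogenase, a mitochondrial enzyme of pyrimidine synthesis. Whether the drug wells also contained DMSO was not stated, and what was kept separate between the replicates, which the labels call biological, was not described. The p-values measure the spread between these arrays.

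SR proteins bind RNA through an RNA recognition motif and carry a domain rich in arginine and serine, which is phosphorylated by the CLK and SRPK kinases. Bound to exonic enhancers, they generally promote the use of nearby splice sites. Many hnRNPs, which package nascent transcripts and bind silencer elements, act in the opposite sense. Both families regulate their own messages: several of the genes hold a poison exon, a cassette exon with an early stop codon whose inclusion sends the transcript to nonsense-mediated decay. Because such genes give rise to several transcript forms, probe sets of 1 gene can report different forms, and the position of each probe set on its transcripts was not analysed here.

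Control probe sets, marker genes and the spread between arrays were read beside the members. The array's ACTB control probe sets, which compare the 3' with the 5' end of the message and so depend on RNA integrity, differed by 1.36 ± 0.03 in DMSO and 1.62 ± 0.07 with teriflunomide (log2, SD, n = 3 per group; exact permutation p = 0.1, two-sided, the smallest that 3 against 3 arrays allow), and the GAPDH ones by 0.0495 ± 0.006 and 0.0627 ± 0.0207 (SD, n = 3 per group; exact permutation p = 0.4). Its part in the member results was not tested. Of 8 tested neuroblastoma markers, 2 were lower, MYCN (15.11 in DMSO and 14.69 with teriflunomide) and CHGA (12.73 and 11.27). PHOX2A (11.93 and 12.69), GATA3 (13.23 and 13.58) and ISL1 (10.25 and 10.47) were higher, and GATA2, bright at 13.43 and 13.35, did not pass. TH lay at the floor and DBH was dim. The summed log2 level of the 9 measured was 88.8 to 90.0 in DMSO and 87.2 to 87.9 with teriflunomide, and its part in the results was not tested. Of 15 measured markers of other cell types, 12 were under log2 5 on every array, the leukocyte, endothelial and epithelial ones among them. The fibroblast genes COL1A1 (10.81 and 11.75), LUM (11.40 and 12.01) and COL3A1 (10.56 and 10.93) were bright, with DCN at the floor. For the 15 the summed log2 level was 59.5 to 59.6 in DMSO and 61.1 to 61.8 with teriflunomide, and its part in the results was not tested. In bulk RNA, fewer cells of a type and less RNA per cell cannot be told apart. DMSO replicate 1 was the highest DMSO array for all 14 members whose DMSO arrays spread by over 0.5 log2, and for 1857 of 3150 such probe sets overall. Its part in the results is given below beside each call that it changed. Where teriflunomide arrays spread by over 0.5 log2, teriflunomide replicate 1 was the highest for 4 of 5 members and 888 of 2412 probe sets overall.

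SR protein messages were lower with teriflunomide across most of the family, and hnRNP messages were lower in fewer cases and by less. Of 47 tested SR and TRA2 probe sets, 31 were lower and 1 was higher at a limma adjusted p under 0.05, adjusted over all 27290 probe sets tested. Of 63 tested hnRNP probe sets, 29 were lower and 6 higher. Among all probe sets tested, 48.8% passed, 25.2% as lower and 23.7% as higher. The median log2 fold change (teriflunomide minus DMSO) was -0.71 for SR and TRA2 probe sets, -0.14 for hnRNP probe sets and -0.0006 for all. A fall of at least 2-fold was called for 17 of the 47 SR and TRA2 probe sets and for 5 of the 63 hnRNP probe sets, against 5.34% of all. A rise of at least 2-fold was called for 1 member, of HNRNPD, against 5.01% of all. These are counts of probe sets, several of which share a gene and are not independent. The difference between the families was not tested.

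**Figure D1:**
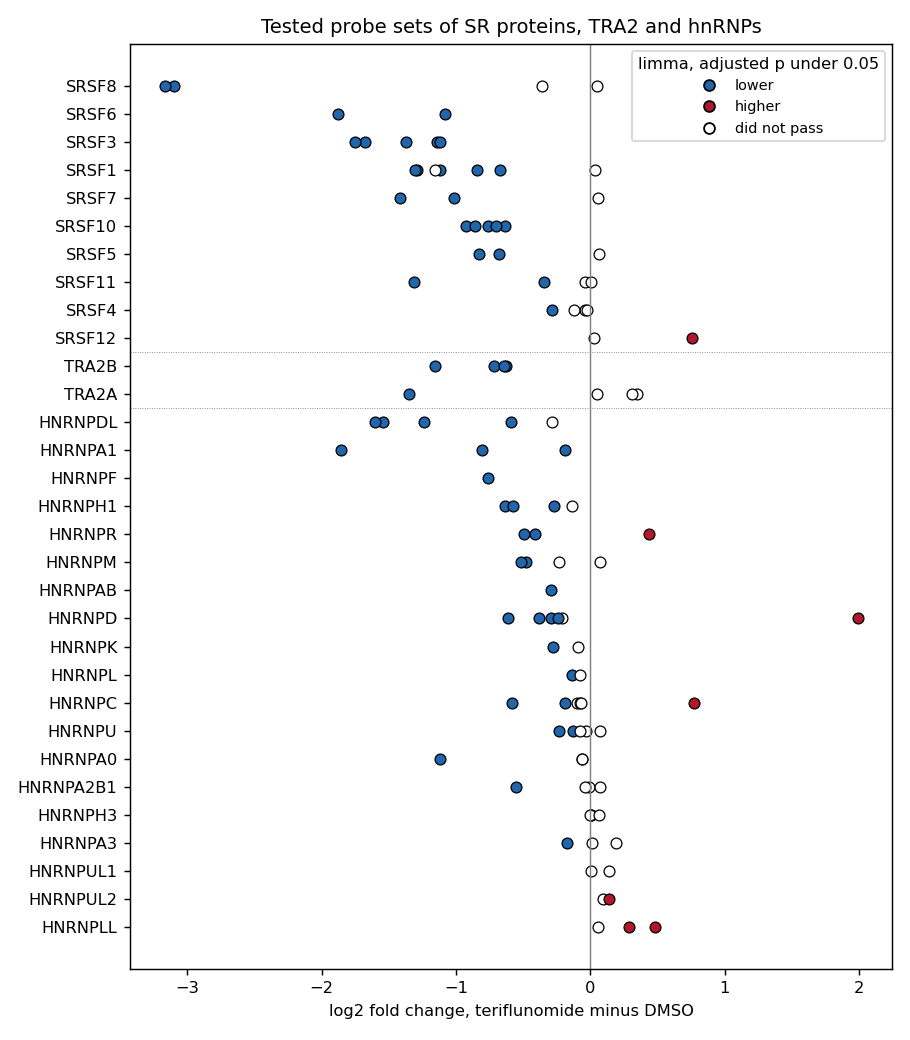
Log2 fold change of each of the 110 tested member probe sets (x axis), by gene (y axis), with SR proteins above, TRA2 genes between the dotted lines and hnRNPs below. Blue points are lower and red points higher at a limma adjusted p under 0.05, and open points did not pass. SRSF8 reaches -3.17 and a single HNRNPD probe set lies at 1.99.

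The filter on dim values, blind to treatment, kept 110 of the 124 members, and 109 of these lay at or above the array median on all 6 arrays. That median was only log2 2.63 to 2.66, close to the lowest value of 2.18, so passing the filter does not mean clear expression. The 14 members not kept belonged to genes that also had a tested probe set. They had group means between 2.18 and 2.79 on the log2 scale, at or near the lowest value of the arrays, and showed no usable level. Restricted to probe sets with a mean of at least log2 10, 22 of 25 SR and TRA2 probe sets were lower and the other 3 did not pass, and 26 of 51 hnRNP probe sets were lower and 3 higher. In that range 32.6% of all probe sets were lower and 30.0% higher.

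**Figure D2:**
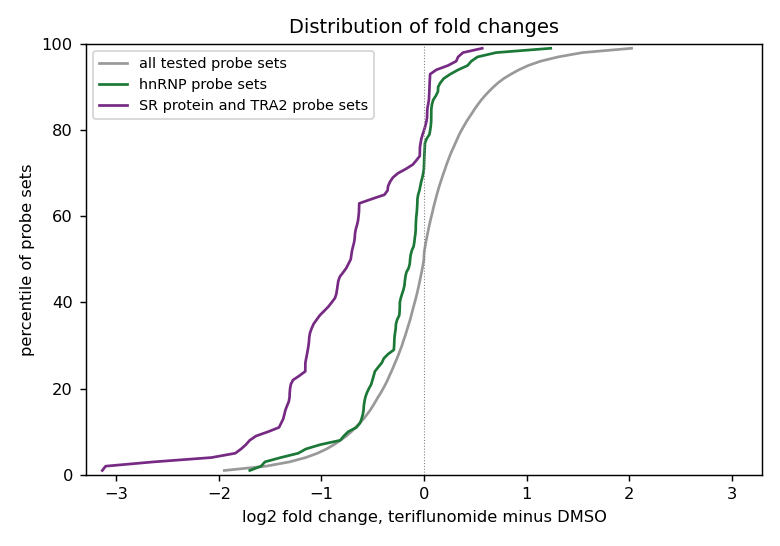
Percentile of probe sets (y axis) against log2 fold change, teriflunomide minus DMSO (x axis), for SR and TRA2 probe sets (n = 47), hnRNP probe sets (n = 63) and all tested probe sets (n = 27290). The medians are -0.71, -0.14 and -0.0006.

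To show where transcription of the most lowered genes begins, 4 promoter stretches are printed, each the 250 bases before the gene's start in RefSeq, build GRCh38.p14. By the lowest probe set of each gene, SRSF3, SRSF6 and SRSF8 had the largest falls among SR genes. HNRNPDL was the hnRNP gene with most probe sets lowered at least 2-fold. On the probe sets with the highest mean, SRSF7 had the largest fall among SR genes (-1.42), and SRSF8 did not pass. Capitals mark matches on either strand to TATAAA (the element bound by TBP), CCAAT (the site of NF-Y), CCGGAA (the core bound by ETS factors), CACGTG (the E-box bound by MYC family proteins), GGGCGG (GC box) or TGACGTCA (cAMP response element). No motif overlapped another in these 4 windows.
SRSF3 (chr6:36594112-36594361, + strand): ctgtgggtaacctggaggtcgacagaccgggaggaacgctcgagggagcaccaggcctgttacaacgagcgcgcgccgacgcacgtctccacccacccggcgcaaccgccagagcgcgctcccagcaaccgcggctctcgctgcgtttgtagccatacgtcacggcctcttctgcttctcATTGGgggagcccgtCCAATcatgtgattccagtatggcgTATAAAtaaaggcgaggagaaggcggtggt
SRSF6 (chr20:43457646-43457895, + strand): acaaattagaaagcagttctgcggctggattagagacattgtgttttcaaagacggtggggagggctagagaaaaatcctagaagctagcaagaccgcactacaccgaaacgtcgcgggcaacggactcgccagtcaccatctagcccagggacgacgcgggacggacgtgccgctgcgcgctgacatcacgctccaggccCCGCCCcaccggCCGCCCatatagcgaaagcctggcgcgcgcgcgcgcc
SRSF8 (chr11:95066627-95066876, + strand): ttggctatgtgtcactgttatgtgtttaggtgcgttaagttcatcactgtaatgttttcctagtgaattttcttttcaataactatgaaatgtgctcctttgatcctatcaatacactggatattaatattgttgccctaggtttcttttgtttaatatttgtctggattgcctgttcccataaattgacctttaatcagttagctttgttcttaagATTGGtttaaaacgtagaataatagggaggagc
HNRNPDL (chr4:82430226-82430475, - strand): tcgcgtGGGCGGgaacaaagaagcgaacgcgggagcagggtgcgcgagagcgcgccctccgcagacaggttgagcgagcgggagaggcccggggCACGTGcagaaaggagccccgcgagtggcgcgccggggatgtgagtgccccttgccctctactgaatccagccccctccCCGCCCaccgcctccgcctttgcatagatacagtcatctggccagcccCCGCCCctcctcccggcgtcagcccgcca

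SRSF3 had TATAAA 30 bases before its start and CCAAT in both orientations. SRSF6 had 2 GC boxes, HNRNPDL 3 GC boxes and an E-box, and SRSF8 only a reversed CCAAT. The SRSF8 window held 33.6% G and C, against 61.6% to 70.8% in the other 3. RefSeq windows were found for 29 of the 31 genes, and HNRNPA1 and TRA2A were not among them. TATAAA was found in 5 of the 29 windows and in 11.1% of 27305 gene windows of the same length, and CCAAT in 14 of 29 against 33.0%. GGGCGG stood in 19 of 29 windows against 42.3%, CCGGAA in 6 against 14.8%, and CACGTG in 5 against 6.49%, all 5 of these being hnRNP genes. TGACGTCA was in 0 of 29 and in 1.77% of all. A match is a description of these letters and not evidence of binding, and where a gene had several windows only the first listed was scanned.

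SRSF8 showed the largest fall. It is an expressed retroposed copy of SRSF2. Its probe set 228760_at read 9.42, 9.53 and 9.62 on the DMSO arrays and 6.26, 6.57 and 6.44 on the teriflunomide arrays (log2 intensity). The change was -3.10 (SE 0.10, adjusted p = 4.67e-05), or 8.56-fold lower. A second, 238929_at, changed by -3.17 (SE 0.08) to a mean of 4.81, which is dim, so the size of that fall is less certain. The other SRSF8 probe sets behaved differently. 213152_s_at stood at 0.05 (SE 0.04), and 214789_x_at at -0.36 (adjusted p = 0.104), which became -0.49 with an adjusted p of 0.0408 without teriflunomide replicate 1. Suffixes _s_at and _x_at mark probe sets that can match more than 1 transcript, so these may also report related sequences. The same limit holds for every probe set with such a suffix, lowered ones included. Of the 60 lower member calls, 36 were on probe sets with an _s_at, _x_at or _a_at suffix.

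SRSF3, the smallest SR protein and one that also links splicing to mRNA export and polyadenylation, was lower on all 5 tested probe sets, with changes of -1.75 to -1.12 on the log2 scale. On 208673_s_at the DMSO arrays read 13.16, 13.10 and 13.02 and the teriflunomide arrays 11.16, 11.40 and 11.46. The change was -1.75 (SE 0.09, adjusted p = 0.000133), or 3.37-fold lower. 202899_s_at changed by -1.67 (SE 0.07), and the brightest probe set, 208672_s_at, by -1.14 (SE 0.04). SRSF6, which shares its domain plan with SRSF4 and SRSF5, was lower on both probe sets. 206108_s_at read 10.66, 10.42 and 10.48 in DMSO and 8.57, 8.66 and 8.70 with teriflunomide, a change of -1.88 (SE 0.08, adjusted p = 7.53e-05). Its brighter probe set, 208804_s_at, changed by -1.08 (SE 0.05), so both were lower with the size differing between them.

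SRSF7, a shuttling SR protein close to SRSF3 that carries a zinc knuckle, read 14.02, 13.94 and 14.07 in DMSO and 12.62, 12.59 and 12.57 with teriflunomide on 214141_x_at. The groups were clearly apart, by -1.42 (SE 0.05, adjusted p = 5.02e-05), and 201129_at changed by -1.02 (SE 0.05). Another SRSF7 probe set, 213649_at, stood at 0.06 (SE 0.15) and did not pass. SRSF1, the founding member of the family and a regulator of both splicing and translation, was lower on 5 of 7 tested probe sets. Its brightest, 211784_s_at, read 15.08, 15.04 and 15.07 in DMSO and 14.43, 14.38 and 14.36 with teriflunomide, a change of -0.67 (SE 0.03, adjusted p = 0.000117). The largest SRSF1 change was -1.31 (SE 0.05) on 227164_at. 201742_x_at stood at 0.03 (SE 0.13), and 229246_at at -1.16 (adjusted p = 0.0601), which passed without DMSO replicate 1 (-0.73, adjusted p = 0.0293) and without DMSO replicate 3 (-1.49, adjusted p = 0.0289).

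SRSF10, which acts as a splicing repressor when dephosphorylated, was lower on all 5 probe sets, with changes of -0.93 to -0.63. On 206095_s_at it read 12.53, 12.62 and 12.34 in DMSO and 11.49, 11.61 and 11.61 with teriflunomide (change -0.93, SE 0.09, adjusted p = 0.000681). SRSF5 changed on both bright probe sets, by -0.83 (SE 0.09) on 212266_s_at and -0.68 (SE 0.10) on 203380_x_at, while a dim one near the floor did not pass at 0.06. SRSF11 had unequal probe sets. 200685_at changed by -1.31 (SE 0.06), the bright 200686_s_at by -0.35 (SE 0.04), and 213742_at stood at -0.04 (SE 0.09), or 0.05 without DMSO replicate 1. SRSF4 had the smallest call among the SR genes, -0.29 (SE 0.06, adjusted p = 0.0113) on 201696_at, and the 3 others tested, between -0.12 and -0.02, did not pass. Without DMSO replicate 1 those 3 stood above 0, at 0.07 (239512_at), 0.16 (242837_at) and 0.01 (239511_s_at), and still did not pass. Of these, 239511_s_at lay near the floor, with means of 3.29 in DMSO and 3.25 with teriflunomide.

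SRSF12, a relative of SRSF10 known as a splicing repressor, was the exception. 239295_at read 8.96, 8.98 and 8.87 in DMSO and 9.59, 9.73 and 9.76 with teriflunomide. The change was 0.76 (SE 0.06, adjusted p = 0.000460). The brighter 1552381_at stood at 0.03 (SE 0.04, adjusted p = 0.586), so the rise rests on 1 of its 2 probe sets.

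TRA2A and TRA2B, which bind purine-rich exonic enhancers alongside SR proteins, were lower on their brightest probe sets. TRA2B was lower on all 4 probe sets, with changes of -1.16 to -0.63. Its 200892_s_at read 13.74, 13.84 and 13.74 in DMSO and 12.63, 12.56 and 12.65 with teriflunomide (change -1.16, SE 0.05, adjusted p = 7.11e-05). The call of the dim 239447_at, at -0.64, was lost without DMSO replicate 3, teriflunomide replicate 1 or teriflunomide replicate 2 (-0.65 to -0.59, adjusted p 0.0657 to 0.0737). For TRA2A, 204658_at read 12.12, 11.98 and 12.01 in DMSO and 10.76, 10.56 and 10.74 with teriflunomide, a change of -1.35 (SE 0.07, adjusted p = 0.000143). The TRA2A probe sets 213593_s_at and 229574_at leaned the other way without passing, at 0.35 and 0.31. The remaining tested one, 213575_at, lay near the floor (means 3.20 in DMSO and 3.25 with teriflunomide) and stood at 0.05. DMSO replicate 1 read 9.29 on 229574_at against 8.49 and 8.81 on the other DMSO arrays, and without it the change was 0.52 (adjusted p = 0.0319). Without the same array 213593_s_at stood at 0.60 (adjusted p = 0.0579). The count of higher SR and TRA2 probe sets then became 2.

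**Figure D3:**
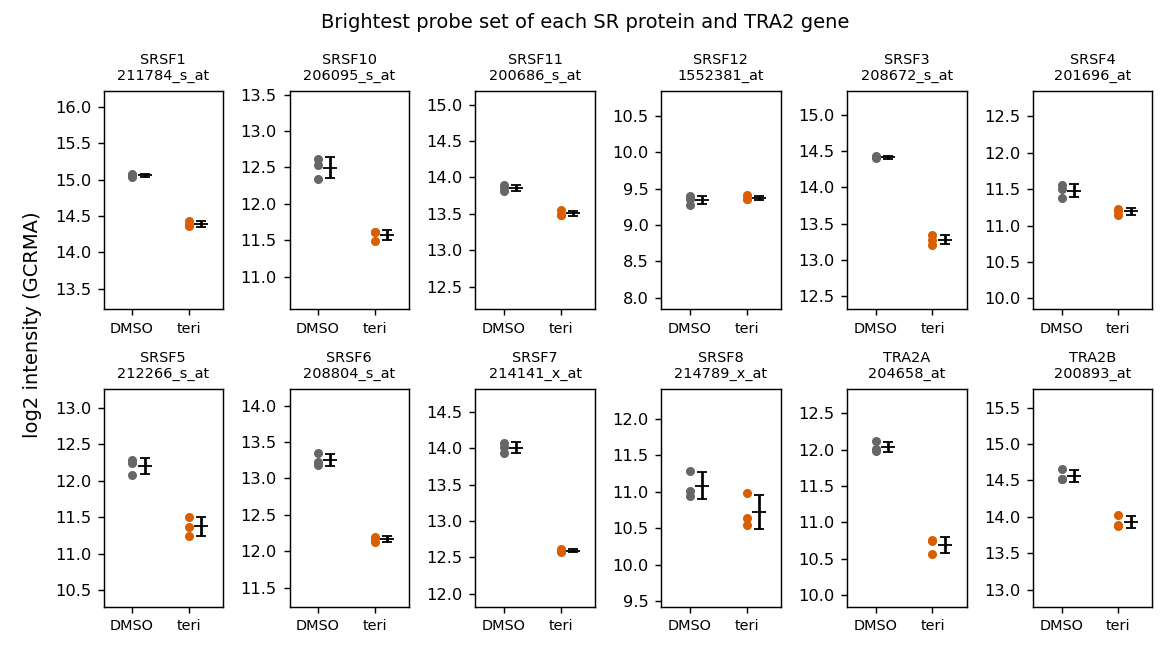
Log2 intensity (y axis) on each of the 3 DMSO (grey) and 3 teriflunomide (orange, teri) arrays for the probe set with the highest mean of each SR and TRA2 gene; bars are mean ± SD. Every y axis spans 3 log2 units, each around its own centre. SRSF12 stands at 9.34 and 9.37 and SRSF8 at 11.08 and 10.72, and in the other 10 panels the groups are apart, TRA2A at 12.04 and 10.69.

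Among hnRNPs, HNRNPDL fell furthest on the most probe sets. It is a relative of HNRNPD and lies near it on chromosome 4. 209068_at read 11.60, 11.50 and 11.61 in DMSO and 9.93, 10.01 and 9.97 with teriflunomide. The arrays of each group were tightly grouped, and the change was -1.60 (SE 0.04, adjusted p = 4.09e-05). 1554678_s_at changed by -1.54 and 209067_s_at by -1.24, while 201993_x_at, the probe set with the highest mean of this gene, changed by -0.59 (SE 0.03). 212454_x_at stood at -0.29 and did not pass (adjusted p = 0.103).

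HNRNPA1, an abundant shuttling hnRNP that antagonises SRSF1 at many exons, was lower on 3 of 3 probe sets by very different amounts. 222040_at read 9.73, 9.01 and 9.21 in DMSO and 7.52, 7.58 and 7.27 with teriflunomide (change -1.86, SE 0.21, adjusted p = 0.00127). The bright 214280_x_at changed by only -0.19 (SE 0.04). 221919_at, at -0.80 (adjusted p = 0.0477), did not pass without DMSO replicate 1, 2 or 3 or teriflunomide replicate 2 or 3 (-0.94 to -0.57, adjusted p 0.0566 to 0.136). HNRNPA2B1, which also sorts microRNAs and mRNAs, changed on its brightest probe set, 205292_s_at, by -0.55 (SE 0.03, adjusted p = 0.000158). Its 3 other probe sets stood between -0.04 and 0.07, and without DMSO replicate 1 the value became 0.02 on 225932_s_at and 0.15 on 225107_at. The HNRNPA2B1 probe set at 0.07, 244131_at, was dim (means 3.40 in DMSO and 3.47 with teriflunomide). HNRNPA0, a single-exon gene, changed by -1.12 (SE 0.04, adjusted p = 6.61e-05) on 229083_at, and its brighter probe sets, at -0.06 each, did not pass. HNRNPAB changed by -0.29 (SE 0.04). For HNRNPA3, 211932_at changed by -0.18, a call lost without teriflunomide replicate 1 or 2 (-0.17 to -0.16, adjusted p 0.0569 to 0.0586), and 211929_at stood at 0.01. Its 211930_at read 11.36, 11.13 and 11.33 in DMSO and 11.49, 11.43 and 11.47 with teriflunomide. That change, 0.19, went the other way and did not pass (limma adjusted p = 0.0692).

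HNRNPF and HNRNPH1 bind runs of G near splice sites. HNRNPF read 11.23, 11.23 and 11.12 in DMSO and 10.42, 10.52 and 10.35 with teriflunomide on its only probe set, 201376_s_at, a change of -0.77 (SE 0.06, adjusted p = 0.000398). HNRNPH1 was lower on 3 of 4 probe sets, at -0.27 (SE 0.04) on the brightest and -0.64 on 213470_s_at. The remaining call, 213472_at, was dim (4.24 and 3.66) and was lost, with a change of 0, when readings below log2 5 were set to 5. Their relative HNRNPH3 passed on none of its 4 probe sets, which stood between -0.001 and 0.07 with SEs of 0.03 to 0.06. HNRNPM, which takes part in splicing switches between epithelial and mesenchymal states, changed by -0.48 (SE 0.03) on 1555844_s_at and -0.51 (SE 0.04) on 200072_s_at. HNRNPK, a poly-C binding protein, changed by -0.28 (SE 0.03) on 200097_s_at and stood at -0.09 on 200775_s_at, where the adjusted p was 0.0585 over probe sets and 0.0451 over genes. HNRNPL, which binds CA repeats, changed by -0.14 on 202072_at, a call lost without DMSO replicate 1, 2 or 3 or teriflunomide replicate 1 or 2 (-0.15 to -0.11, adjusted p 0.0582 to 0.107). The brighter HNRNPL probe set, 35201_at, stood at -0.08 and did not pass (limma adjusted p = 0.226).

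HNRNPU, a scaffold protein of the nuclear matrix, was lower on 2 of 5 probe sets by small amounts. 235603_at changed by -0.24 (-0.22 to -0.21 without teriflunomide replicate 1 or 2, adjusted p 0.0561 to 0.0575). 200593_s_at changed by -0.13, and this call held only without DMSO replicate 1 (-0.14 to -0.10 without any other array, adjusted p 0.0588 to 0.0949). The brightest HNRNPU probe set, 200594_x_at, stood at -0.03 and did not pass (limma adjusted p = 0.384). Nor did 225805_at, at -0.08, or 216855_s_at, at 0.07. HNRNPUL1 did not pass at 0.001 and 0.14. Its relative HNRNPUL2 was higher on 225405_at by 0.14 (SE 0.03, adjusted p = 0.0143), and its other probe set stood at 0.09 and did not pass. HNRNPLL, a relative of HNRNPL known from lymphocyte splicing, was higher on 2 of 3 probe sets. 236104_at read 8.21, 8.39 and 8.41 in DMSO and 8.84, 8.77 and 8.84 with teriflunomide (change 0.48, SE 0.06, adjusted p = 0.00217). 225385_s_at rose by 0.29, a call lost without DMSO replicate 2 or 3 (0.28 to 0.29, adjusted p 0.0538 to 0.0557), and the brightest, 225386_s_at, stood at 0.05.

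**Figure D4:**
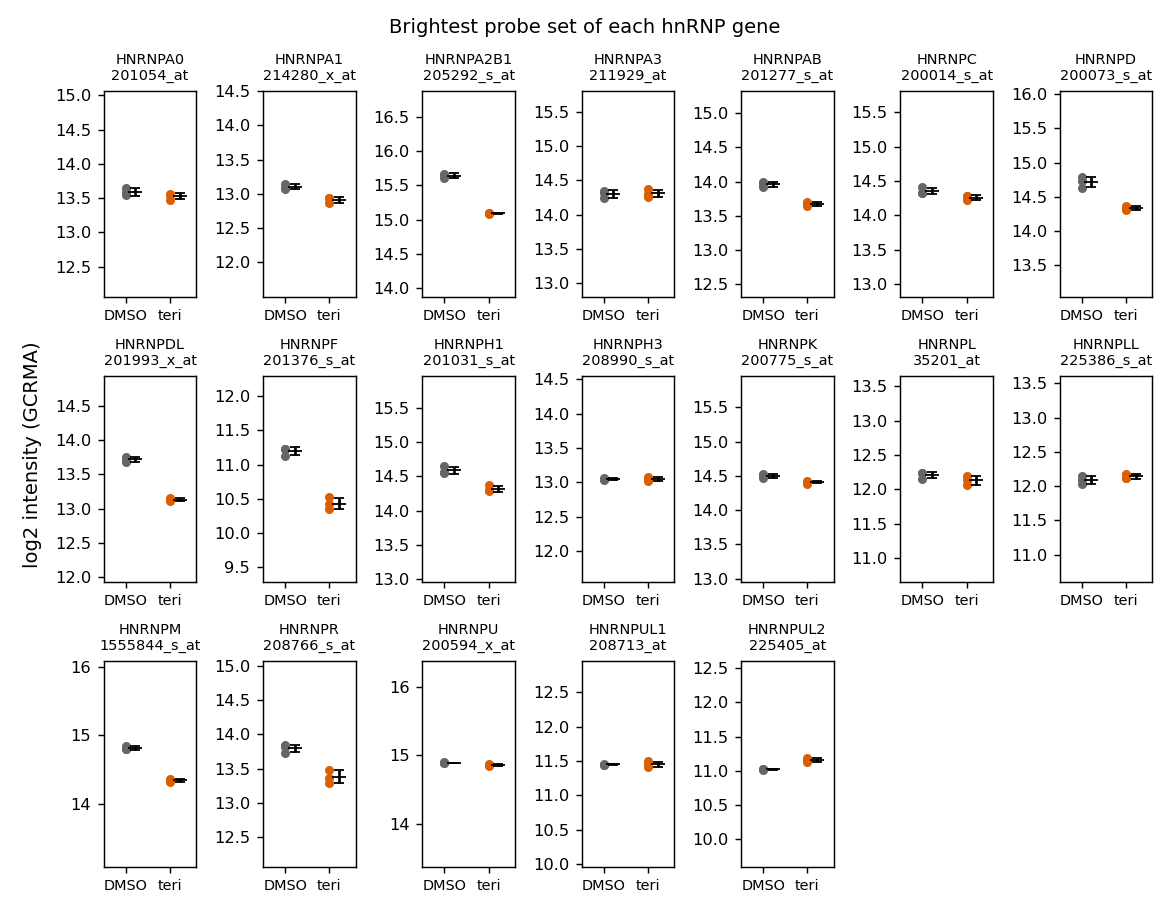
Log2 intensity (y axis) on each of the 3 DMSO (grey) and 3 teriflunomide (orange, teri) arrays for the probe set with the highest mean of each of 19 hnRNP genes; bars are mean ± SD and each y axis spans 3 log2 units around its own centre. HNRNPF (11.20 and 10.43) and HNRNPDL (13.72 and 13.13) are the furthest apart, while HNRNPH3 stands at 13.04 and 13.05.

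Probe sets of 1 gene passed in opposite directions for 3 of the 31 genes, HNRNPD, HNRNPC and HNRNPR. Of the 31, 29 had 2 or more tested probe sets and could do so, so the share was 10.3%, against 8.35% of the 6081 genes on the array with 2 or more. HNRNPD, also called AUF1, binds AU-rich elements and speeds mRNA decay. Its probe set 213359_at read 9.63, 9.12 and 9.09 in DMSO and 11.57, 11.18 and 11.06 with teriflunomide. The change was 1.99 (SE 0.20, adjusted p = 0.000986), or 3.97-fold higher. On 4 other HNRNPD probe sets the signal was lower, with changes of -0.61 to -0.24 and the brightest, 200073_s_at, at -0.38 (SE 0.05). The smallest of these calls, 229129_at at -0.24, was lost without teriflunomide replicate 1 or 2 (-0.24 to -0.21, adjusted p 0.0571 to 0.0574). 209330_s_at stood at -0.21 (adjusted p = 0.0628).

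For HNRNPR, 208766_s_at read 13.84, 13.73 and 13.82 in DMSO and 13.48, 13.36 and 13.29 with teriflunomide (change -0.41, SE 0.06), and 208765_s_at changed by -0.50 (SE 0.04). 232004_at was higher by 0.44 (SE 0.10, adjusted p = 0.0186), a call lost without DMSO replicate 1 or 3 (0.40 and 0.40, adjusted p 0.0606 to 0.0641). HNRNPC, which binds U-rich tracts, changed by -0.59 (SE 0.07) on 227110_at and by -0.19 on 200751_s_at. The latter call was kept without DMSO replicate 1 and lost without any other array (-0.20 to -0.15, adjusted p 0.0551 to 0.0849). Its 235500_at rose by 0.77 between means of 2.69 and 3.46, close to the floor. That call was lost without DMSO replicate 1 or 2 or teriflunomide replicate 1 or 3 (0.62 to 0.83, adjusted p 0.0555 to 0.0726), and when all readings below log2 5 were set to 5 the change became 0. The 3 other HNRNPC probe sets, among them the brightest, 200014_s_at, stood between -0.10 and -0.07 and did not pass.

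**Figure D5:**
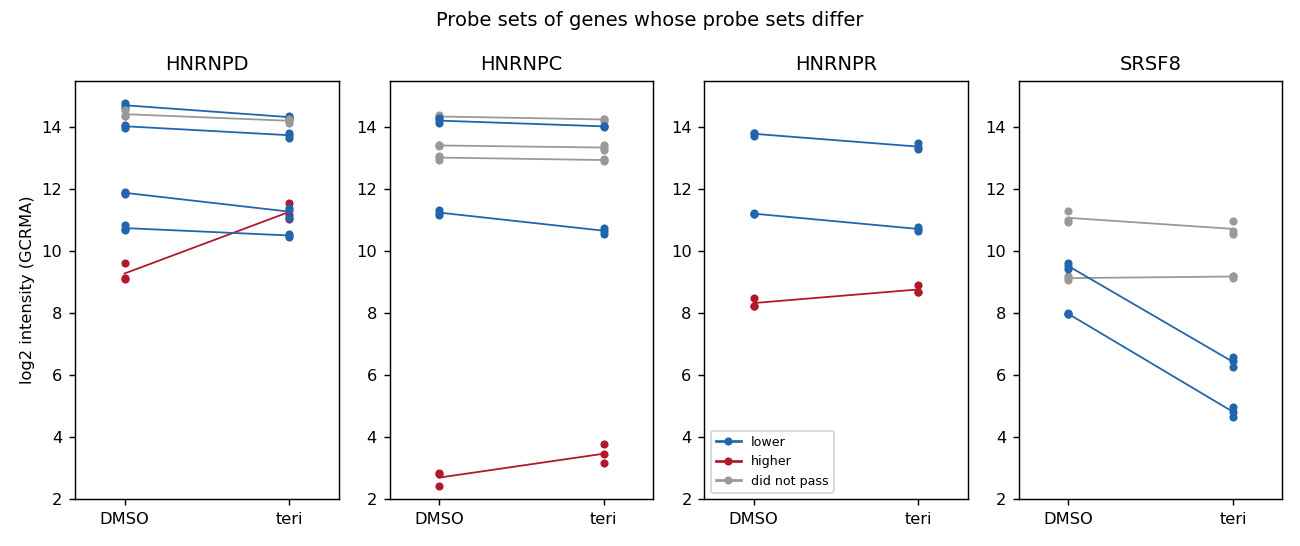
Log2 intensity (y axis) on each array by treatment (x axis) for every tested probe set of HNRNPD, HNRNPC, HNRNPR and SRSF8; points are arrays and lines join the group means. Red probe sets are higher, blue lower and grey did not pass; HNRNPD 213359_at goes from 9.28 to 11.27 while its blue probe sets change by -0.61 to -0.24.

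By gene, all tested probe sets were lower for 7 of the 31 genes: SRSF3, SRSF6, SRSF10, TRA2B, HNRNPA1, HNRNPAB and HNRNPF, the last 2 with 1 probe set each. For 16 genes some were lower and the rest did not pass, for 3 some were higher and the rest did not pass (SRSF12, HNRNPLL and HNRNPUL2), and for HNRNPH3 and HNRNPUL1 none passed. With the probe set of the highest mean standing for each gene, 20 genes were lower and 1, HNRNPUL2, higher, against 28.9% lower and 29.7% higher among 11998 genes. With each gene's probe sets averaged, 18 were lower, and the higher ones were HNRNPLL and SRSF12 and not HNRNPUL2. All 10 lower SR and TRA2 genes were among these 20, while the brightest probe sets of SRSF8 and SRSF12 did not pass.

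RefSeq lists a non-coding transcript beside the coding ones for 6 of the 12 SR and TRA2 genes (SRSF1, SRSF3, SRSF6, SRSF8, SRSF10 and SRSF11) and for 3 of the 19 hnRNP genes (HNRNPA1, HNRNPA3 and HNRNPDL). Among 11266 protein-coding genes tested the share was 19.8%. Such entries include transcripts expected to be degraded, but the arrays were not matched to them here.

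Other genes of splicing were read from lists, with 1 probe set per gene, and each count stands against the 28.9% lower and 29.7% higher among all 11998 genes. Of 50 tested spliceosome proteins, 31 were lower and 6 higher, with a median log2 fold change of -0.26. The list held proteins of the small ribonucleoproteins and other spliceosome factors, U2AF1, U2AF2, PRPF19, CDC5L, PLRG1 and ZRSR2 among them. SF3B3, of the branch point recognition complex, changed by -1.05 (SE 0.07), and PRPF3, of the tri-snRNP, by -1.03 (SE 0.09). PLRG1 rose by 0.56 and ZRSR2, of the minor spliceosome, by 0.48. Of 60 splicing regulators under other symbols, 25 were lower and 12 higher, with a median of -0.09. RBM4 changed by -1.45 (SE 0.14) and LUC7L2, a U1-associated protein, by -1.43 (SE 0.06), whereas CELF3 rose by 0.89. ESRP1, an epithelial splicing regulator, rose by 3.39 (SE 0.07) from a dim 4.24 in DMSO. Against these, the median over all 11998 genes was 0.0015.

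Among kinases that phosphorylate SR proteins, CLK3 rose by 1.21 (SE 0.03, adjusted p = 2.5e-05), CLK1 by 1.01 (SE 0.06) and CLK4 by 0.86 (SE 0.08), whereas SRPK1 changed by -0.46 (SE 0.03) and CLK2 stood at 0.09. The list these came from also held the import receptors TNPO1 and TNPO3, neither of which passed. Of its 11 tested genes, 3 were higher and 2 lower, DYRK2 being the other lower one at -0.32. The share higher was 27.3%, close to the 29.7% of all genes. Of 10 tested genes of nonsense-mediated decay and the exon junction complex, 7 were lower and 3 did not pass (median -0.27), where 28.9% of all genes were lower. The list held 16 genes, and only these 10 had a probe set with a single symbol. SMG6, which did not pass, lay near the floor, with means of 3.04 in DMSO and 2.90 with teriflunomide. MAGOHB, an exon junction core protein, read 10.80, 10.92 and 10.95 in DMSO and 8.72, 9.07 and 9.11 with teriflunomide, a change of -1.93 (SE 0.12). SMG9 changed by -1.33 (SE 0.38) to a dim 4.08, and UPF1, the central helicase of decay, by -0.64.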

How the data were processed

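The authors deposited 1 log2 value per probe set and array. The submitters' processing notes name GCRMA and no version. That method models background from probe sequence, gives all arrays 1 distribution and summarises probes, which would hide a change in total RNA. Arrays carry no read depth, and 3 arrays per group limit the precision. Names came from the platform annotation, and 0 member symbols needed updating against RefSeq.

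Probe sets were tested if their value reached the array median on 3 or more arrays. Teriflunomide was compared with DMSO by limma 3.58.1 (R 4.3.3; lmFit, eBayes, no covariates), two-sided, with Benjamini-Hochberg adjustment over 27290 probe sets and a threshold of 0.05. SE is limma's. Gene counts used the probe set with the highest mean, over 11998 genes. The fit was tested on simulated data. Tables and figures used Python 3.11.15.

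The members, gene lists and tests were chosen with earlier results of these data known. Named probe sets were the 6 largest rises and 6 largest falls whose groups did not overlap, all probe sets called in genes with calls in both directions, the brightest of each gene, and the 2 largest changes each way per list. Others, CLK2, CLK4 and UPF1 included, were chosen after their values were seen. Groups did not overlap on 30.8% of all tested probe sets with teriflunomide lower, and on 29.3% with it higher. For the largest rises and falls this separation was a condition of choice and is no added support. Alternatives were other filters, centring, quantile normalization, raised low values, trended and robust eBayes, the replicate number as a block, each array left out, and for genes the mean of probe sets or plain-suffix probe sets.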

Additional observations from a re-analysis of the deposited data

Results flagged for a closer look

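A signal outside the members was higher with teriflunomide on 1 probe set that the annotation gives to HNRNPUL2-BSCL2, a readthrough transcript, and to BSCL2 (seipin, of lipid droplet formation). 208906_at read 8.23, 8.09 and 8.14 in DMSO and 9.06, 8.96 and 8.70 with teriflunomide, a log2 fold change of 0.75 (SE 0.10, limma adjusted p = 0.00273). The 2 symbols cannot be told apart on this probe set.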

How the results depend on the processing

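The values rest on 3 arrays a group, and probe sets near the floor carry little signal. Without a filter on dim values 4 members and 3 hnRNP probe sets were higher, against 7 and 6. Over all probe sets the count higher went from 6458 to 5086 in that setting. By gene, 2 were higher when each gene's probe sets were averaged, and 3 were higher and 13 lower with plain-suffix probe sets, against 1 and 20. The cause of these shifts was not tested, but the last setting tested 25 genes. Of 67 called members, 9 lost the call without the filter, 3 with median centring, 2 with quantile normalization, 4 with low values raised and 0 with trended and robust eBayes, and none of the 67 changed sign under these settings, the block or any array left out, though 2 became 0 with low values raised.

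Leaving out each array in turn gave 52 to 59 lower and 5 to 7 higher members, 30 to 32 and 1 to 2 for SR and TRA2, and 22 to 27 and 4 to 6 for hnRNPs. Over all tested probe sets the same fits gave 5921 to 6473 lower and 5490 to 5861 higher, against 6873 and 6458. Of the 43 uncalled members, 19 changed sign when some array was left out, among them HNRNPA3 211929_at from -0.0195 to 0.0368, HNRNPH3 208990_s_at from -0.00982 to 0.0147, HNRNPUL1 208713_at from -0.0199 to 0.0188 and SRSF12 1552381_at from -0.0031 to 0.0542.

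With the replicate number as a block, 58 members were lower and 5 higher (SR and TRA2 31 and 1, hnRNPs 27 and 4), and 7 of the 67 calls were lost, HNRNPUL2 225405_at among them (limma adjusted p = 0.0592). Over all tested probe sets the block gave 6361 lower and 5925 higher. Deviations of same-numbered arrays correlated at 0.128, 0.152 and -0.0452. Arrays numbered 1 and 2 correlated best with their own number in the other group, and those numbered 3 did not. The main fit did not take the numbers to pair the arrays.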

Other observations

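SRSF2 and SRSF9, SR proteins of wide expression, appear on the array only on probe sets that carry a second symbol, so they are not among the members. All 3 SRSF2 probe sets, shared with the intronic microRNA gene MIR636, were lower with teriflunomide. 200753_x_at read 12.81, 12.71 and 12.63 in DMSO and 11.35, 11.26 and 11.29 with teriflunomide, a log2 fold change of -1.42 (SE 0.06, limma adjusted p = 8e-05). 214882_s_at changed by -1.02 (SE 0.05) and 200754_x_at by -0.91 (SE 0.06). SRSF9, whose 2 probe sets are shared with GATC, changed by less, -0.16 (SE 0.04) on 200044_at and -0.18 (SE 0.03) on 201698_s_at.

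Among the other shared probe sets, 3 of HNRNPA3 and its pseudogene HNRNPA3P1 were lower, with changes of -0.32 to -0.10. HNRNPH2, shared with the readthrough RPL36A-HNRNPH2, stood at -0.15 (adjusted p = 0.136). The 2 HNRNPA1 probe sets shared with pseudogenes stood at -0.08 and -0.04 and did not pass.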
